A study of Mus musculus with 6 samples.

Results

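Alpha- and beta-tubulin genes were followed by their ribosome footprints in round spermatids of the mouse, post-meiotic germ cells with a single chromosome set that have yet to take on the shape of sperm. The set was named gene by gene, as the testis alpha-tubulins Tuba3a and Tuba3b beside the other forms Tuba1a, Tuba1b, Tuba1c, Tuba4a, Tuba8, Tubb3, Tubb4b and Tubb5. Of these 10 names, 9 have a row in the deposited table of 22770 gene rows, namely 7 alpha-tubulins and 2 beta-tubulins, and Tubb3 was not analysed here. All 9 had a mean of at least 1 FPKM (fragments scaled to transcript length and to the mapped fragments of the library) over the libraries, the limit for the fit across 15578 rows. The set was selected on the Eif5a SKO and Wild type FPKM values of these same 6 libraries, in which Tuba3a and Tuba3b differ, so the differences between genotypes are given as a description and no test is drawn on them.

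Footprints were sequenced from 3 samples of genotype Eif5a SKO and from 3 samples of genotype Wild type. EIF5A is a translation factor that carries the modified amino acid hypusine and helps ribosomes through difficult stretches of coding sequence. The labels do not spell out SKO, and they are silent on strain, age, any Cre driver and any pooling of animals. The series' design text, which describes an accessibility assay, speaks of 3 mice per group with spermatids sorted from each. Nothing else says that the footprint samples came from separate animals, so the spread behind each p-value may be technical. Both the amount of mRNA and its translation set the footprint density, RNA levels were not analysed here, and in bulk samples fewer cells of a type and less RNA per cell cannot be told apart.

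Microtubules are hollow polymers of alpha-beta tubulin pairs. Each mammalian cell type draws on several genes for either subunit, and the products differ chiefly in their C-terminal tails, where most modifications of tubulin are placed. Spermatids use microtubules in the manchette, the transient skirt that shapes the sperm head, and in the axoneme, the motile core of the tail. Free tubulin is also known to trigger the decay of tubulin mRNAs while they are being translated, so tubulin messages are under control at the ribosome in many cell types.

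The libraries differed in composition as well as in genotype. Protein-coding rows held 18.2% to 32.9% of the summed FPKM in the Eif5a SKO libraries and 22.3% to 28.3% in the Wild type libraries, and the 3 densest rows held 24.6% to 46.4%. Absolute depth is unknown. The steps between low values put the relative depth at 0.503 to 1 in Eif5a SKO and at 0.631 to 0.787 in Wild type, with Eif5a SKO replicate 1 set to 1. The targeted gene followed the labels. Eif5a had 1.84, 1.93 and 2.99 FPKM in the Eif5a SKO libraries, against 34.2, 48.8 and 61.9 FPKM in the Wild type libraries. Its log2 fold change was -3.90 (SE 0.37, limma adjusted p = 0.00641), and p was 0.1 in a two-sided exact permutation test, the lowest that the 20 ways of splitting 6 libraries can give. All 16 round spermatid markers have a row, and they ran from dense rows such as Acrv1 to rows near the limit of the fit, such as Tssk2 with means of 1.62 FPKM in Eif5a SKO and 1.06 FPKM in Wild type. Acrv1, an acrosomal protein gene, had 405, 875 and 605 FPKM in Eif5a SKO and 287, 382 and 540 FPKM in Wild type.

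Tuba3a was the densest of the tubulin rows and one of the densest protein-coding rows of normal round spermatids. The gene (identifier 22144, GRCm38 chromosome 6, 125278270 to 125286081) encodes an alpha-tubulin made mainly in testis. It had 305, 655 and 572 FPKM in Eif5a SKO replicates 1, 2 and 3, against 1151, 1714 and 2465 FPKM in Wild type replicates 1, 2 and 3. Every Eif5a SKO library was below every Wild type library. The means were 511 ± 183 FPKM in Eif5a SKO and 1777 ± 659 FPKM in Wild type (SD, n = 3 each), and density in Eif5a SKO was 28.7% of that in Wild type. Among 13745 protein-coding rows Tuba3a ranked 39, 41 and 31 in the Eif5a SKO libraries, and 2 in all 3 Wild type libraries.

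Tuba3b, the paralogue of Tuba3a (identifier 22147, GRCm38 chromosome 6, 145615963 to 145621477), followed it library by library. It had 239, 536 and 466 FPKM in Eif5a SKO and 901, 1388 and 1977 FPKM in Wild type, again without overlap. The means were 414 ± 155 FPKM in Eif5a SKO and 1422 ± 539 FPKM in Wild type (SD, n = 3 each), with Eif5a SKO at 29.1% of Wild type. The density of Tuba3a divided by that of Tuba3b was nearly constant, at 1.28, 1.22 and 1.23 in Eif5a SKO and 1.28, 1.24 and 1.25 in Wild type. The sources used here do not say how reads that match both genes were assigned, so how far the 2 rows are separate measurements is uncertain.

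**Figure D1:**
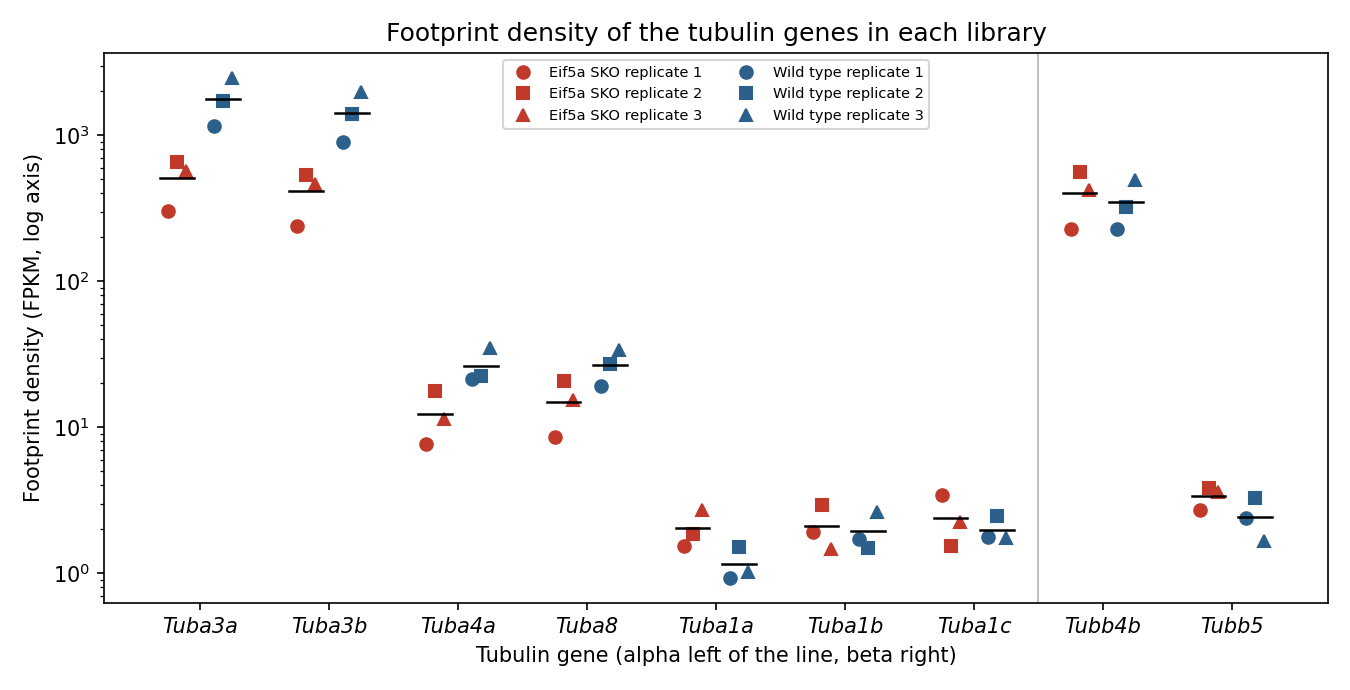
Footprint density in FPKM on a log axis for the 9 tubulin genes, alpha-tubulins left of the grey line and beta-tubulins right of it. Each symbol is a library (Eif5a SKO red, Wild type blue, symbol shape by replicate number) and each black line a group mean. The Eif5a SKO symbols lie below all Wild type symbols for Tuba3a, Tuba3b and Tuba4a, above all of them for Tuba1a, and among them for the other 5 genes.

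The promoters of the pair are shown because the values of these 2 genes go together, with that of Tubb4b, the densest beta-tubulin, for contrast. The sequences are the 250 bases before the start of each gene, read 5′ to 3′ on the gene's strand from RefSeq on GRCm38.p6. The capitals mark the letters CCAAT, a common promoter element.
Tuba3a, chr6:125286082-125286331, minus strand: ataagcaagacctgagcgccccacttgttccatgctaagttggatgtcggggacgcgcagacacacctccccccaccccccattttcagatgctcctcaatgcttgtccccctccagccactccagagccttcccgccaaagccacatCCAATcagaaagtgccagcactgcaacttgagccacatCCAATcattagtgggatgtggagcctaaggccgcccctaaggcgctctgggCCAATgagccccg
Tuba3b, chr6:145615713-145615962, plus strand: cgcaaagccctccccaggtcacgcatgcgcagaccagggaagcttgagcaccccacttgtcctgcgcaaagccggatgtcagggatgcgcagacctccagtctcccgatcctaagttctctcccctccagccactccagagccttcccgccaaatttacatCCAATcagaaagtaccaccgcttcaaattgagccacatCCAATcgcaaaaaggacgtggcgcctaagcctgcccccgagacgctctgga
Tubb4b, chr2:25224703-25224952, minus strand: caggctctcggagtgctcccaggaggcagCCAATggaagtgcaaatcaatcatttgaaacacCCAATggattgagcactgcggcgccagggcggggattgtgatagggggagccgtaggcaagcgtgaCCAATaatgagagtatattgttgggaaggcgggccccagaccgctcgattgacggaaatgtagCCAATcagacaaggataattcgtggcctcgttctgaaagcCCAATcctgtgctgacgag

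The promoters of Tuba3a and Tuba3b are relatives of each other. A global alignment of the 250 bases placed identical letters at 72.0% of them, against 52.4% to 62.0% in the 44 other pairs of the 10 promoters. The longest run in common has 33 bases, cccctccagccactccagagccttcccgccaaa, and begins 142 bases before the start of Tuba3a and 129 bases before that of Tuba3b. A run of 17 bases, acatCCAATcagaaagt, follows it in both, and a second run of 17 bases, ttgagccacatCCAATc, lies nearer to the start. CCAAT was found 3 times before the start of Tuba3a, 2 times before Tuba3b and 5 times before Tubb4b, on the gene's own strand in each case. Both strands were searched, and among 32851 RefSeq promoters 10.1% hold at least 2 such matches in the 250 bases before the start, 2.79% at least 3 and 0.84% at least 4. In the whole windows, which reach 50 bases past the start, CCAAT was found in 7 of the 10 promoters and in 37.4% of all. The cAMP response element TGACGTCA, through which the spermatid activator CREM is known to act, was not among the letters of any of the 10 promoters, and is present in 1.79% of all promoters. Its shorter form TGACG, which lies within it, was found in Tuba1c, Tuba4a and Tubb4b and in 20.8% of all promoters. The letters TATAAA were found in Tubb4b alone, after the annotated start, and in 13.6% of all promoters. A match is a string of letters and not a shown site of binding.

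Tubb4b, the beta-tubulin of cilia and flagella in many tissues, did not share the low values of Tuba3a and Tuba3b. Its identifier is 227613, on GRCm38 chromosome 2 from 25222158 to 25224702. Tubb4b had 226, 558 and 423 FPKM in Eif5a SKO and 227, 324 and 495 FPKM in Wild type. The lowest libraries of both genotypes were nearly equal, and the groups overlapped. The means were 402 ± 167 FPKM in Eif5a SKO and 349 ± 136 FPKM in Wild type (SD, n = 3 each). Its log2 difference was 0.18 (SE 0.51) with the deposited values and turned to -0.03 (SE 0.29) under TMM-type scaling, in which each library is divided by a trimmed mean of its ratios to a common library. Among protein-coding rows Tubb4b ranked 63, 52 and 50 in Eif5a SKO and 44, 44 and 41 in Wild type. The table also has rows for the pseudogenes Tubb4b-ps1 (GRCm38 chromosome 5) and Tubb4b-ps2 (GRCm38 chromosome 1), which can share reads with Tubb4b. Tubb4b-ps1 averaged 211 ± 76.1 FPKM in Eif5a SKO and 209 ± 71.7 FPKM in Wild type. Tubb4b-ps2 averaged 110 ± 41.0 FPKM in Eif5a SKO and 106 ± 38.0 FPKM in Wild type.

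Set against Tubb4b in the same library, the testis alpha-tubulins separated the genotypes with little spread, since a ratio within a library does not depend on how that library was scaled. The summed density of Tuba3a and Tuba3b was 2.40, 2.14 and 2.46 times that of Tubb4b in the Eif5a SKO libraries, against 9.04, 9.57 and 8.98 times in the Wild type libraries. The means were 2.33 ± 0.171 in Eif5a SKO and 9.19 ± 0.324 in Wild type (SD, n = 3 each), a 3.94-fold higher mean in Wild type. With the 2 pseudogene rows added to Tubb4b the means were 1.29 ± 0.0675 in Eif5a SKO and 4.80 ± 0.107 in Wild type. The ratio shows that the alpha-tubulin pair and Tubb4b differed unequally between genotypes, and not which of them moved.

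**Figure D2:**
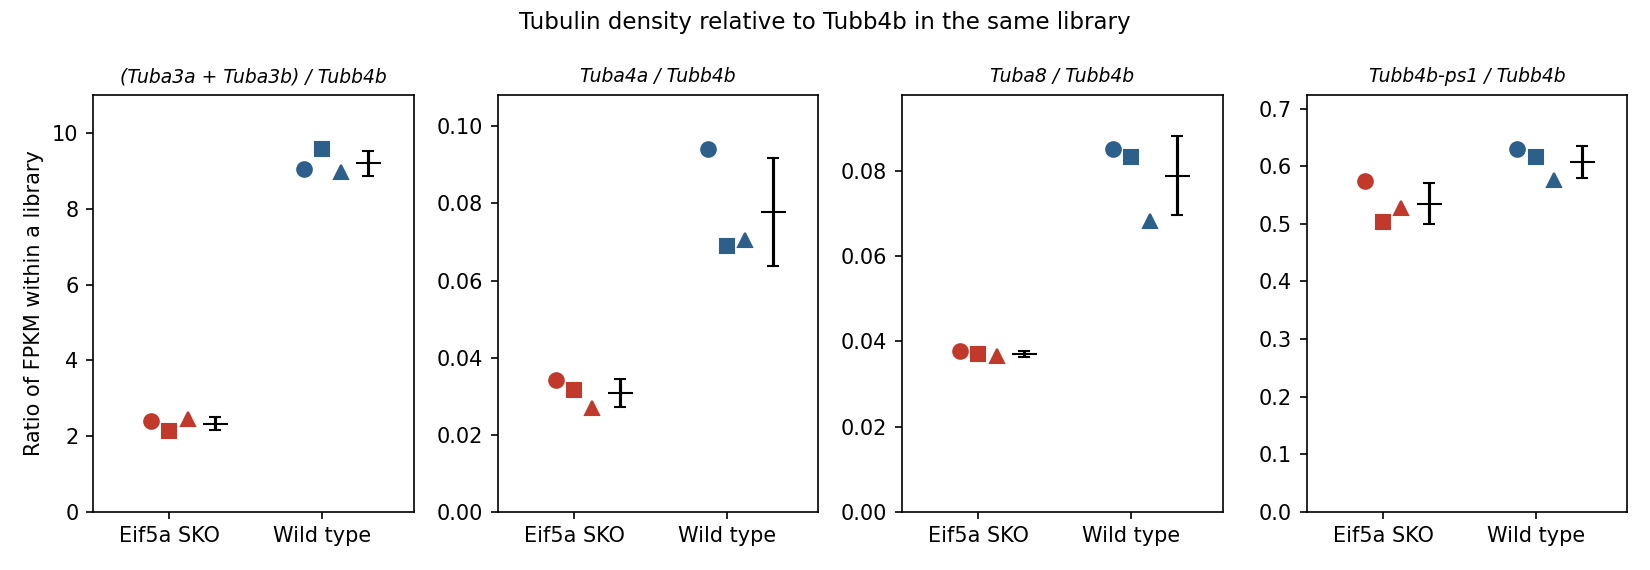
FPKM of tubulin rows divided by the FPKM of Tubb4b in the same library, with Eif5a SKO (red) left of Wild type (blue) in each panel, symbol shape by replicate number, and the mean with its SD (n = 3) in black beside the symbols. Each axis starts at 0. The ratio of Tuba3a plus Tuba3b is 2.14 to 2.46 in Eif5a SKO and 8.98 to 9.57 in Wild type, and the ratios of Tuba4a and Tuba8 are likewise apart. That of the pseudogene Tubb4b-ps1, 0.504 to 0.575 in Eif5a SKO and 0.577 to 0.629 in Wild type, is also lower in Eif5a SKO without overlap, by a narrow gap.

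Tuba4a and Tuba8, 2 alpha-tubulins at intermediate density, had lower means in Eif5a SKO as well, but by less. Tuba4a (identifier 22145, GRCm38 chromosome 1, 75214972 to 75221261) encodes an alpha-tubulin whose tail lacks the terminal tyrosine that most alpha-tubulins carry when they are made. It had 7.72, 17.6 and 11.4 FPKM in Eif5a SKO, against 21.3, 22.4 and 34.9 FPKM in Wild type, without overlap. Its means were 12.2 ± 5.00 FPKM in Eif5a SKO and 26.2 ± 7.58 FPKM in Wild type (SD, n = 3 each), with Eif5a SKO at 46.7% of Wild type. Among protein-coding rows it ranked 3226, 2460 and 2873 in Eif5a SKO and 1154, 1419 and 1209 in Wild type. Tuba8 (identifier 53857, GRCm38 chromosome 6, 121210734 to 121226098), the most divergent of the alpha-tubulins in sequence, had 8.55, 20.6 and 15.4 FPKM in Eif5a SKO and 19.3, 27.0 and 33.8 FPKM in Wild type. The highest Eif5a SKO library thus lay above the lowest Wild type library. Its means were 14.9 ± 6.05 FPKM in Eif5a SKO and 26.7 ± 7.26 FPKM in Wild type (SD, n = 3 each).

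Relative to Tubb4b both genes were also apart between genotypes in every library. Tuba4a over Tubb4b was 0.0309 ± 0.00363 in Eif5a SKO and 0.0779 ± 0.0140 in Wild type (SD, n = 3 each). Tuba8 over Tubb4b was 0.0371 ± 0.000628 in Eif5a SKO and 0.0789 ± 0.00921 in Wild type. Relative to Tuba3a the order was the opposite. Tuba8 over Tuba3a was 0.0288 ± 0.00232 in Eif5a SKO and 0.0154 ± 0.00156 in Wild type, and Tuba4a over Tuba3a was 0.0240 ± 0.00365 in Eif5a SKO and 0.0153 ± 0.00290 in Wild type. With the deposited FPKM values the Tuba3 pair had the widest gap between genotypes and Tuba4a a narrower gap. Tuba8 and Tubb4b had overlapping groups. The set was selected on these same values, so that order is a description only.

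The alpha-tubulins of general use were near the lower end of what was measured. Tuba1a, the main alpha-tubulin of developing neurons, had 1.54, 1.84 and 2.70 FPKM in Eif5a SKO and 0.934, 1.51 and 1.02 FPKM in Wild type. The Eif5a SKO values lay above the Wild type values, the closest pair being 1.54 and 1.51 FPKM. Tuba1b, the alpha-tubulin of most dividing cells, averaged 2.10 ± 0.736 FPKM in Eif5a SKO and 1.95 ± 0.609 FPKM in Wild type, with overlap. Tuba1c, a close relative of Tuba1b, averaged 2.41 ± 0.971 FPKM in Eif5a SKO and 1.99 ± 0.409 FPKM in Wild type, with overlap. Tubb5, the beta-tubulin of most cell types, averaged 3.39 ± 0.614 FPKM in Eif5a SKO and 2.44 ± 0.804 FPKM in Wild type, again with overlap (SD, n = 3 each throughout). Values of this size may rest on few reads, but counts were not used here, so how many is unknown. The coding sequences of these genes resemble each other, so shared reads may move them, which was not examined.

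Markers of somatic testis cells, which use the general tubulins, are given beside these low values. None of the 7 Sertoli and 7 Leydig markers tested passed with the deposited values (smallest limma adjusted p = 0.0853 and 0.0896), although the sums of both lists did not overlap between genotypes. The 7 Sertoli cell markers with a row, of 14, summed to 54.5 to 82.0 FPKM in the Eif5a SKO libraries and 16.7 to 23.6 FPKM in the Wild type libraries. The 8 Leydig cell markers with a row, of 10, summed to 61.5 to 118 FPKM in Eif5a SKO and 14.3 to 19.0 FPKM in Wild type. Clu, a Sertoli cell gene, had 26.2, 25.0 and 31.9 FPKM in Eif5a SKO and 3.14, 6.37 and 7.19 FPKM in Wild type. Ctsl, a protease gene, averaged 28.0 ± 7.71 FPKM in Eif5a SKO and 7.44 ± 2.99 FPKM in Wild type (SD, n = 3 each), and Clu and Ctsl carried most of the Sertoli sum. Under TMM-type scaling Clu passed (limma adjusted p = 0.0424), where 0.556% of all rows were called higher. With every library brought to the same protein-coding sum (equal protein-coding sums) Clu and Ctsl passed (limma adjusted p = 0.0235 and 0.0349), where 2% of all rows were called higher. No Leydig marker passed under either scaling. Groups did not overlap in 4 of the 7, Aard, Clu, Ctsl and Vim, all higher in Eif5a SKO, against 10.9% of all tested rows. Trf, Inha and Dhh overlapped, with log2 fold changes of -0.13, 0.30 and 0.01. Of the 7 Leydig markers tested, 5 were higher in Eif5a SKO without overlap, against 10.9% of all tested rows. Insl3, a Leydig cell hormone gene, had 33.0, 21.6 and 55.8 FPKM in Eif5a SKO and 3.27, 2.82 and 10.2 FPKM in Wild type. None of these Sertoli or Leydig markers with a row was at 0 in any library, Sox9, Wt1 and Amh were not analysed here, and the markers' part in the values of Tuba1a, Tuba1b, Tuba1c and Tubb5 was not tested.

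The germ cell lists are given beside the abundant tubulins. The 16 round spermatid markers summed to 1519 to 3322 FPKM in Eif5a SKO and 1189 to 2261 FPKM in Wild type, the 10 elongating spermatid markers to 176 to 240.0 FPKM in Eif5a SKO and 134 to 211 FPKM in Wild type, and the 12 meiotic markers to 180 to 408 FPKM in Eif5a SKO and 162 to 284 FPKM in Wild type. The ranges of these 3 sums overlapped between genotypes, and Acrbp and Acrv1 made up much of the first. Gene by gene, 6 of the 15 round spermatid markers tested were higher in Eif5a SKO without overlap, against 10.9% of all tested rows, and 0 were lower. Their median log2 fold change was 0.62, against 0.13 over all tested rows. With the deposited values 0 of the 15 passed the test (smallest limma adjusted p = 0.325). With equal protein-coding sums Spaca1, Spaca3, Catsper3 and Izumo1 passed, all higher in Eif5a SKO (limma adjusted p = 0.0399, 0.0189, 0.0357 and 0.0480). In that setting 2% of all rows were called higher and 1.26% lower. The meiotic marker Syce2 also passed there, lower in Eif5a SKO (log2 fold change -1.24, limma adjusted p = 0.0357). Its deposited values overlapped between genotypes. The part of these marker differences in the values of the tubulins was not tested. The 6 spermatogonia markers with a row, of 9, summed to 14.8 to 20.7 FPKM in Eif5a SKO and 13.0 to 14.1 FPKM in Wild type, and the 10 peritubular, endothelial, macrophage and blood markers with a row, of 14, to 48.9 to 70.6 FPKM in Eif5a SKO and 58.2 to 117 FPKM in Wild type. This last sum joins genes that differ in opposite directions. The peritubular and matrix genes Acta2, Myh11, Cnn1 and Dcn were higher in Eif5a SKO without overlap, as were 10.9% of all tested rows. Of them Dcn rose (limma adjusted p = 0.0470), where 0.109% of all rows were called higher. Acta2, smooth muscle actin, averaged 17.2 ± 4.48 FPKM in Eif5a SKO and 2.93 ± 1.04 FPKM in Wild type (SD, n = 3 each). Acta2 did not pass with the deposited values (limma adjusted p = 0.0775). It passed under TMM-type scaling and with equal protein-coding sums (limma adjusted p = 0.0448 and 0.0278). There 0.556% and 2% of all rows were called higher. The 4 globin genes were lower in Eif5a SKO without overlap, as were 4.78% of all tested rows. Their log2 fold changes were -1.53 to -1.28, and none passed with the deposited values. With equal protein-coding sums Hba-a1 passed (limma adjusted p = 0.0480), where 1.26% of all rows were called lower. Dmrt1, Sohlh1 and Cd68 of these last lists were listed at 0 in a library.

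Density per length was ordered alike in both genotypes. In Wild type the order of means was Tuba3a, Tuba3b, Tubb4b, Tuba8, Tuba4a, Tubb5, Tuba1c, Tuba1b and Tuba1a. The ranges of Tuba3a and Tuba3b overlapped, although Tuba3a was higher in 3 of 3 libraries, and those of Tuba8 and Tuba4a overlapped too. The ranges of Tubb5, Tuba1c, Tuba1b and Tuba1a each overlapped the next, below those of Tuba4a. In Eif5a SKO the order was the same. There the range of Tubb4b overlapped that of Tuba3b, which was higher in 2 of 3 libraries, whereas in Wild type Tuba3b lay above Tubb4b with no overlap.

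Shares were taken over the 7 alpha-tubulin members, which do not include the alpha-tubulin-like gene Tubal3. Tuba3a and Tuba3b held nearly all of that summed footprint density in both genotypes. They made up 95.9%, 96.4% and 96.9% of the summed FPKM of the 7 alpha-tubulin rows in Eif5a SKO, against 97.9%, 98.3% and 98.4% in Wild type. The other 5 alpha-tubulin rows summed to 33.6 ± 10.7 FPKM in Eif5a SKO and 58.0 ± 14.8 FPKM in Wild type (SD, n = 3 each) and did not overlap. All 7 summed to 567, 1236 and 1071 FPKM in Eif5a SKO, against 2097, 3157 and 4517 FPKM in Wild type. Tubb4b held 99.1% ± 0.249 of the 2 beta-tubulin rows in Eif5a SKO and 99.2% ± 0.397 in Wild type. The 9 rows together took 0.571%, 0.678% and 0.735% of the protein-coding FPKM in Eif5a SKO and 1.81%, 2.13% and 2.29% in Wild type.

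In the fit across all rows, limma on log2(FPKM + 1) with Benjamini-Hochberg adjustment and a threshold of 0.05, 0 of the 9 tubulin rows passed with the deposited values. The background there was 0.109% of rows higher and 0.0193% lower in Eif5a SKO, and 3 of the 9 had an unadjusted p under 0.05, as had 11% of all rows. The log2 fold changes, Eif5a SKO minus Wild type, were -1.80 (SE 0.51) for Tuba3a, -1.79 (SE 0.51) for Tuba3b, -1.07 (SE 0.41) for Tuba4a and -0.85 (SE 0.43) for Tuba8. They were 0.48 (SE 0.34) for Tuba1a, 0.07 (SE 0.35) for Tuba1b, 0.16 (SE 0.35) for Tuba1c and 0.37 (SE 0.34) for Tubb5. The median over all tested rows was 0.13. Under TMM-type scaling that median was -0.03, and 2 of the 9 passed, Tuba3a and Tuba3b, both lower, where 0.556% of rows were called higher and 0.243% lower. With every library brought to the same protein-coding sum 4 of the 9 passed, Tuba3a, Tuba3b, Tuba4a and Tuba8, all lower, where 2% of rows were called higher and 1.26% lower. These counts describe rows chosen with this contrast in view and nothing is read from them. Groups did not overlap, with Eif5a SKO lower, in 3 of the 9 rows and in 4.78% of all tested rows, and with Eif5a SKO higher in 1 of the 9 and in 10.9% of all tested rows.

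**Figure D3:**
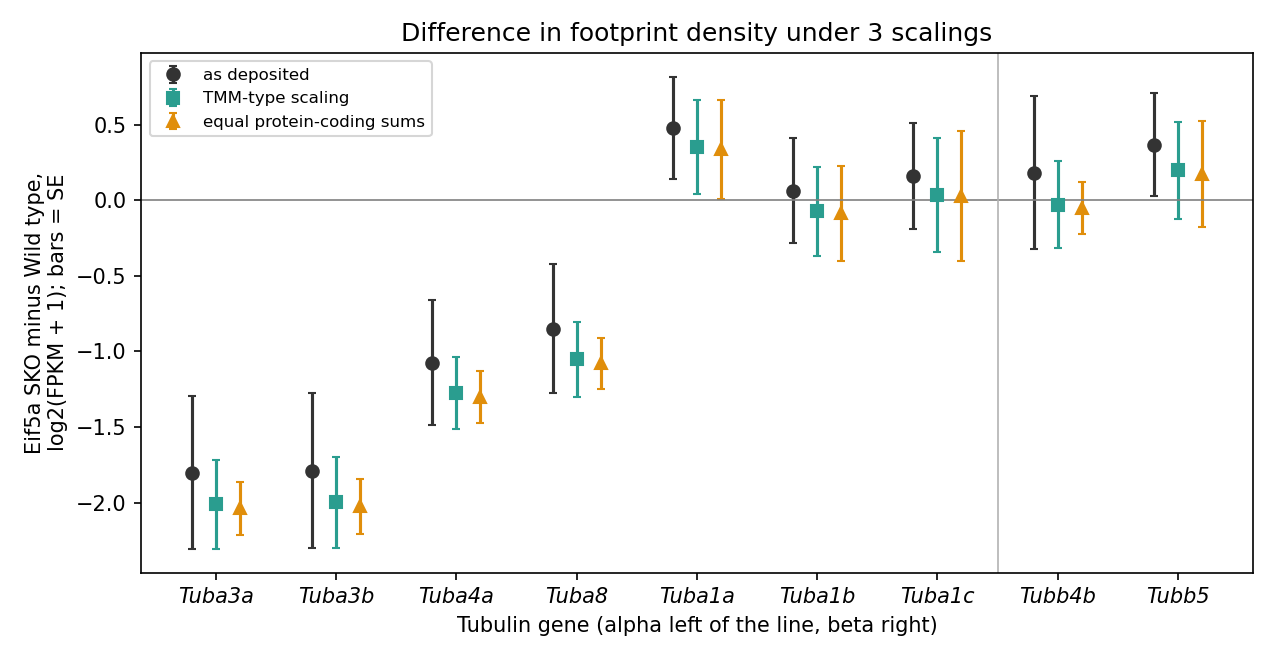
Eif5a SKO minus Wild type difference on the log2(FPKM + 1) scale for each tubulin gene, with the standard error as bars, for the deposited values (black circles), TMM-type scaling (green squares) and equal protein-coding sums (orange triangles). Tuba3a moves between -1.80 and -2.04 and Tuba4a between -1.07 and -1.30, while Tubb4b and Tuba1b lie near 0 and take either sign depending on the scaling.

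Other tubulin genes were compared as a list. Of 10, 6 have a row, and 0 rose and 0 fell in the all-row test, with a median log2 fold change of -0.29 against 0.13 over all tested rows. Tubd1, the delta-tubulin gene, whose product is needed for the triplet microtubules of centrioles, had 4.49, 6.90 and 7.87 FPKM in Eif5a SKO, against 11.8, 13.5 and 19.4 FPKM in Wild type. Its groups did not overlap, and its log2 fold change was -1.10 (SE 0.37, limma adjusted p = 0.321). With equal protein-coding sums Tubd1 passed (log2 fold change -1.31, limma adjusted p = 0.0262), where 1.26% of all rows were called lower. Tubal3, an alpha-tubulin-like gene, had 3.28, 1.47 and 3.02 FPKM in Eif5a SKO, against 3.37, 17.8 and 15.2 FPKM in Wild type. The 2 groups were separated by a narrow gap, since Wild type replicate 1 was close to the Eif5a SKO libraries (limma adjusted p = 0.321). Tubb6, a beta-tubulin of somatic cells, averaged 8.74 ± 2.73 FPKM in Eif5a SKO and 5.50 ± 1.06 FPKM in Wild type (SD, n = 3 each; limma adjusted p = 0.613). It was named after its values were seen.

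Tubulin is folded by the chaperonin TRiC, helped by prefoldin, and then assembled into pairs by the cofactors TBCA to TBCE. None of the 14 genes of that list passed, and its median log2 fold change was 0.26. Tbca, the cofactor that holds beta-tubulin, averaged 174 ± 57.9 FPKM in Eif5a SKO and 108 ± 26.0 FPKM in Wild type (SD, n = 3 each; limma adjusted p = 0.628). Pfdn5, a prefoldin subunit, averaged 109 ± 51.4 FPKM in Eif5a SKO and 76.4 ± 34.2 FPKM in Wild type (limma adjusted p = 0.809). Eif5a SKO was above Wild type without overlap in 2 of the 14, against 10.9% of all tested rows. They were Arl2, the small GTPase that works with the cofactors, and Pfdn4, both named after their values were seen. Arl2 had 3.94, 7.65 and 10.2 FPKM in Eif5a SKO and 1.39, 2.85 and 2.02 FPKM in Wild type (limma adjusted p = 0.275). Pfdn4 averaged 20.7 ± 8.13 FPKM in Eif5a SKO and 7.59 ± 4.01 FPKM in Wild type (limma adjusted p = 0.318). It passed with equal protein-coding sums (log2 fold change 1.16, limma adjusted p = 0.0430), where 2% of all rows were called higher.

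The machinery of tubulin mRNA autoregulation, in which TTC5 recognises the nascent tubulin chain and SCAPER brings in the CCR4-NOT deadenylase, gave 0 of 5 genes past the test and a median of -0.16. Cnot1, the CCR4-NOT scaffold, averaged 57.3 ± 15.3 FPKM in Eif5a SKO and 78.5 ± 12.5 FPKM in Wild type (limma adjusted p = 0.6995). Cnot10 averaged 8.59 ± 2.81 FPKM in Eif5a SKO and 9.53 ± 1.93 FPKM in Wild type (limma adjusted p = 0.919).

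Enzymes that modify tubulin were likewise not past the test. Of the genes that act on the terminal tyrosine or on acetylation 5 of 7 were tested, with a median of 0.05. Atat1, the alpha-tubulin acetyltransferase, averaged 15.3 ± 4.33 FPKM in Eif5a SKO and 17.6 ± 7.43 FPKM in Wild type (limma adjusted p = 0.946). Sirt2, a deacetylase of tubulin among other targets, averaged 9.88 ± 4.12 FPKM in Eif5a SKO and 11.3 ± 6.55 FPKM in Wild type (limma adjusted p = 0.980). Of the glutamylation and glycylation genes 20 of 21 were tested, with a median of -0.03. Ttll10, a polyglycylase, averaged 69.9 ± 21.8 FPKM in Eif5a SKO and 105 ± 38.2 FPKM in Wild type (limma adjusted p = 0.697). Agbl5, which removes glutamate from tubulin tails, averaged 60.0 ± 20.9 FPKM in Eif5a SKO and 39.5 ± 12.6 FPKM in Wild type (limma adjusted p = 0.663).

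The gamma-tubulin ring complex, which seeds new microtubules, had 8 tested genes of 10 with a median of 0.14. Mzt2, a small subunit, averaged 93.3 ± 29.6 FPKM in Eif5a SKO and 67.0 ± 25.5 FPKM in Wild type (limma adjusted p = 0.735), and Cdk5rap2, which recruits the complex to centrosomes, averaged 11.97 ± 3.84 FPKM in Eif5a SKO and 16.4 ± 5.33 FPKM in Wild type (limma adjusted p = 0.734). Among severing, end-binding and lattice-binding proteins 20 of 23 genes were tested, with a median of 0.08. Kif2a, a kinesin that takes microtubules apart, averaged 123 ± 47.6 FPKM in Eif5a SKO and 73.2 ± 36.1 FPKM in Wild type (limma adjusted p = 0.609). Stmn1, which binds free tubulin, averaged 65.9 ± 28.3 FPKM in Eif5a SKO and 56.3 ± 21.7 FPKM in Wild type (limma adjusted p = 0.917). Map7d1, a microtubule-binding protein gene named after its values were seen, had 0.514, 0.842 and 0.869 FPKM in Eif5a SKO, against 2.94, 3.09 and 5.72 FPKM in Wild type. It had the smallest adjusted p of these lists (log2 fold change -1.46, limma adjusted p = 0.190). With equal protein-coding sums Map7d1 passed (log2 fold change -1.60, limma adjusted p = 0.0354), where 1.26% of all rows were called lower.

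Over the 7 lists 78 of 90 genes were tested. With the deposited values 0 rose and 0 fell in limma, and the median log2 fold change was 0.05 against 0.13 over all tested rows. An unadjusted limma p under 0.05 was found in 6 of the 78, and in 11% of all tested rows. Groups did not overlap in 4 of the 78 with Eif5a SKO lower, or 5.13%, against 4.78% of all tested rows, and in 2 with Eif5a SKO higher, or 2.56%, against 10.9%.

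**Figure D4:**
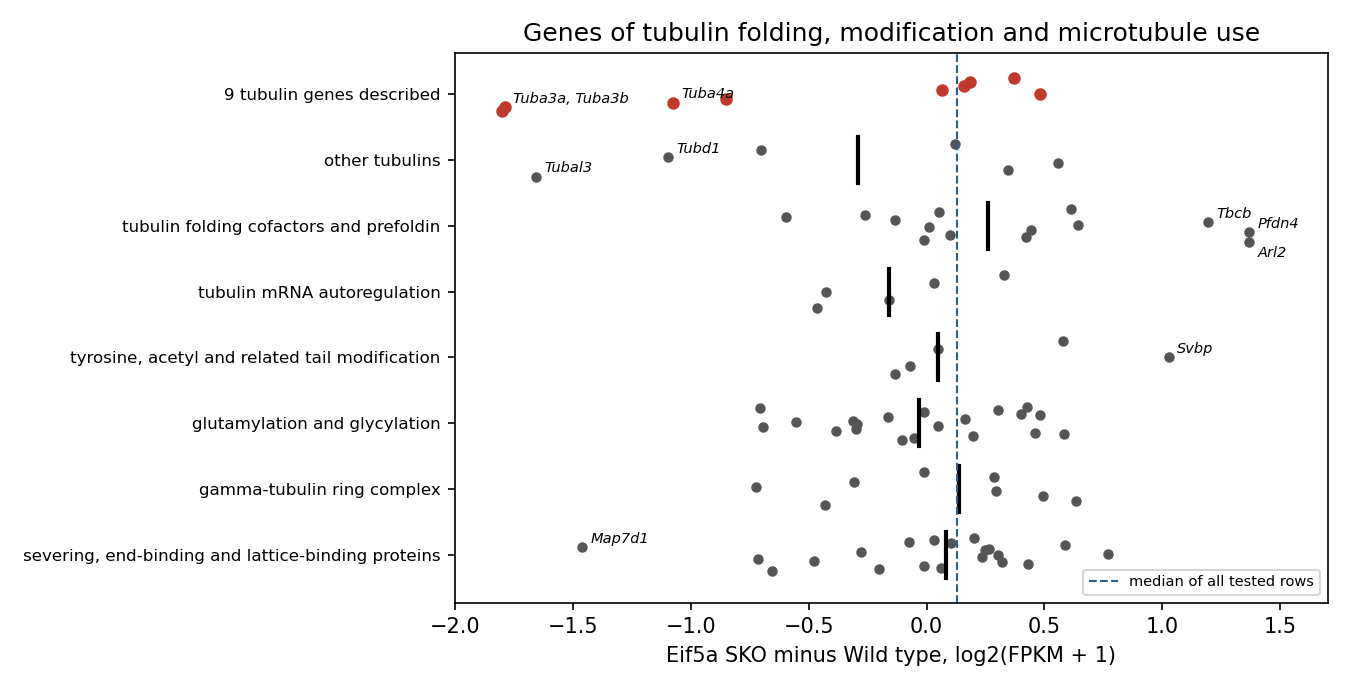
Eif5a SKO minus Wild type difference on the log2(FPKM + 1) scale for the 9 tubulin genes (red, top) and the tested genes of 7 lists on tubulin folding, modification and microtubule use (grey), a point per gene with vertical position within a list carrying no meaning. Black bars are list medians and the dashed line is the median of all tested rows at 0.13; genes beyond 1 in size are labelled. Tuba3a and Tuba3b lie furthest to the left at -1.80 and -1.79, and no list median is outside -0.29 to 0.26.

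The rows whose levels followed Tuba3a most closely over the 6 libraries were sought among 10457 named protein-coding genes outside the tubulin set, by Pearson's correlation of log2(FPKM + 1). They were Atr, a DNA damage checkpoint kinase gene (r = 0.998), Cabcoco1, a centrosomal and ciliary protein gene (r = 0.997), Ghrl, the ghrelin hormone gene (r = 0.994), Ggnbp2, which encodes a partner of gametogenetin (r = 0.993), and Vps35l, an endosomal recycling gene (r = 0.993). With so many genes and 6 libraries that share genotype and scaling, values of this size are a description only. Ghrl averaged 82.6 ± 21.0 FPKM in Eif5a SKO and 254 ± 79.1 FPKM in Wild type (SD, n = 3 each). Cabcoco1 averaged 29.9 ± 10.1 FPKM in Eif5a SKO and 126 ± 46.1 FPKM in Wild type. Among the tubulins themselves the correlation with Tuba3a was 0.9997 for Tuba3b, 0.963 for Tuba4a and 0.949 for Tuba8, against 0.288 for Tubb4b. For the low rows it was 0.112 for Tuba1b, -0.559 for Tuba1a, -0.540 for Tuba1c and -0.521 for Tubb5.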

How the data were processed

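Per the labels' protocols, lysates made in cycloheximide buffer were treated with RNase I and spun through a sucrose cushion, and gel-purified protected fragments went into libraries with either of 2 small RNA kits, the kit of each library not being named. The authors deposited FPKM, 1 value per gene symbol and library for 6 libraries. Per the submitters' processing notes cutadapt, Bowtie2, STAR, Cufflinks and the build mm10 were used, with no role or order given. For the annotation, for ribosomal RNA removal and for reads with several matches, the sources used here name no settings. Columns named cKO were matched to the Eif5a SKO samples by replicate number. Counts were not used here, so no counting error is given.

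Symbols were matched to a RefSeq table of GRCm38 for 19305 rows, and 3465 were unmatched. Rows averaging 1 FPKM or more were compared by limma 3.58.1 in R 4.3.3 on log2(FPKM + 1), lmFit and eBayes with a trend, two-sided, with no further scaling, and 7192 rows were left out. Such fold changes understate the change of low genes. The fit was tested on simulated data. The members and gene lists were chosen with earlier results of these data known. Besides the members and Eif5a, each list gave its 2 densest tested genes (for markers, not all are printed) and each pathway list up to 4 past the threshold, and Tuba3a the 5 closest in pattern; others are marked. Protein sequences were not used here. Alternatives were pseudocounts of 0.1 and 5, other filters, TMM-type scaling (trims of 0.3 and 0.05), equal protein-coding sums, eBayes without a trend, a replicate block, and each library left out. Same-numbered libraries deviated together with correlations of 0.093, 0 and 0.024, so no block was used. Libraries of a genotype had Spearman correlations of 0.847 to 0.870 over protein-coding rows, and libraries of different genotypes 0.824 to 0.848.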

Additional observations from a re-analysis of the deposited data

How the results depend on the processing

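Tuba3a, Tuba3b, Tuba4a and Tuba8 had negative log2 fold changes in all 15 other settings, Tuba3a between -2.08 and -1.47, Tuba3b -2.08 and -1.43, Tuba4a -1.35 and -0.81, and Tuba8 -1.11 and -0.52, the last without Eif5a SKO replicate 1. Tuba1a and Tubb5 had positive values in all 14 in which they were tested, Tuba1a from 0.19 with a pseudocount of 5 to 0.75 with 0.1, and Tubb5 from 0.18 to 0.54 (0.20 without Wild type replicate 3). Tubb4b ran from -0.10 to 0.55, Tuba1b from -0.12 to 0.23 and Tuba1c from -0.05, without Eif5a SKO replicate 1, to 0.36. Eif5a passed in all 15 (largest adjusted p = 0.0369, limma). With the deposited values 17 rows were higher and 3 lower (85.0% higher). The counts were 87 and 38 under TMM-type scaling (69.6% higher), 314 and 198 with equal protein-coding sums (61.3% higher), 78 and 8 at a mean of at least 5 FPKM, 4 and 1 with no filter, 3 and 1 with a pseudocount of 5, and 3 to 28 higher and 1 to 4 lower with 1 library left out (28 and 3 without Eif5a SKO replicate 2, 12 and 1 without Eif5a SKO replicate 3, 5 and 1 without Wild type replicate 1, 8 and 2 without Wild type replicate 2, 3 and 1 without Wild type replicate 3). Tubulin rows past the test, each of them lower, numbered 0 as deposited, 2 under TMM-type scaling and 4 with equal protein-coding sums. Of all rows, 0.0193%, 0.243% and 1.26% were called lower in these settings, in that order. The members were chosen with this contrast in view, so nothing is read from these tubulin counts. The 7 pathway lists gave 1 gene higher and 2 lower with equal protein-coding sums only. In that setting 2% of all rows were called higher and 1.26% lower. The replicate block left 4 rows higher and 1 lower, or 3 and 1 with TMM-type scaling, a setting chosen after seeing the data, under which no tubulin row passed; not every library correlated best with its own number. Without Tuba3b the pair's share became that of Tuba3a alone, 93.7% in Eif5a SKO and 96.7% in Wild type. With 1 library left out the pair's share averaged 96.2% to 96.6% in Eif5a SKO and 98.1% to 98.3% in Wild type, and its ratio to Tubb4b 2.27 to 2.43 and 9.01 to 9.30. With the pseudogene rows added, chosen after seeing the data, that ratio was 1.29 in Eif5a SKO and 4.80 in Wild type. The causes of these shifts were not tested. Absolute depth is unknown, so what it limits was not measured.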
